A study of Homo sapiens with 8 samples.

Results

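The genes described here control the sterol regulatory element binding proteins (SREBPs) and move sterol within the cell. They are the 9 genes SREBF1, SREBF2, SCAP, INSIG1, INSIG2, MBTPS1, MBTPS2, NPC1 and STARD4, chosen by symbol, and each was found in all 3 deposited tables, among 17467 genes that the tables share. Their transcripts were measured by RNA sequencing in SUDHL6, a human diffuse large B-cell lymphoma cell line of the germinal-centre B-cell type. Cells received MS8815, EPZ-6438, MS8815N or the vehicle DMSO for 18 h, at 2.5 µM for each compound, with 2 libraries per group (8 in all). Per the labels, MS8815 is a PROTAC (a molecule that brings a ubiquitin ligase to its target so that the target is degraded) against EZH2, the enzyme of polycomb repressive complex 2 that methylates histone H3. EPZ-6438, also known as tazemetostat, is the matched inhibitor of EZH2's enzymatic activity, and MS8815N is the analog of MS8815 that does not act as a PROTAC. The labels speak of duplicates without saying whether they came from separate cultures, so a p-value here reflects spread between libraries that may be purely technical. All groups come from 1 cell line at 1 dose and 1 time.

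SREBF1 and SREBF2 encode transcription factors made as precursors in the membrane of the endoplasmic reticulum. When sterol is low, SCAP escorts the precursor to the Golgi, where the site-1 protease (MBTPS1) and then the site-2 protease (MBTPS2) release the active factor. When sterol is plentiful, INSIG1 or INSIG2 holds the SCAP complex back. SREBP2, the product of SREBF2, mainly drives genes of cholesterol synthesis and uptake, and SREBP1 genes of fatty acid synthesis. NPC1 lets cholesterol out of the lysosome after uptake, and STARD4 carries sterol through the cytosol. SREBF2 and INSIG1 are themselves known SREBP targets, and STARD4 is known as one from mouse and human cells.

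The MS8815 libraries differed from the others in more than these genes. Their estimated depth was 12.98 and 14.64 M (mega) reads, against 26.0 to 34.1 M reads in the other libraries. The summed normalised count of 18 pan-B marker genes was 102857 to 103340 with MS8815 and 210307 to 211829 with DMSO. All 18 had a negative log2 fold change, and 17 of the 18 were called lower. The sum of 9 markers of epithelial cells and fibroblasts was 15133 to 15746 with MS8815 and 880 to 1047 with DMSO. Of 11 such markers tested for MS8815, 8 were called higher and 0 lower, with a median log2 fold change of 3.96 over the 11. The change was positive for 10 and negative for 1, at -1.81. Of the 11, 1 marker was at 0 in 1 MS8815 library. The 10 germinal-centre markers summed to 44477 to 47265 with MS8815 and 83152 to 83371 with DMSO. Of these, 9 were called lower, and 1 had a positive log2 fold change, 0.60, and was not called. Markers of T or NK cells (3 genes tested) and of myeloid cells (4 genes tested) summed to at most 342 in any library, and 2 of the 4 myeloid markers were higher with MS8815. EPZ-6438 and MS8815N left the pan-B sum at 100.1% and 98.5% of DMSO, and no marker was called in either. The epithelial and fibroblast sum was 1231 to 1263 with EPZ-6438 (129.4% of DMSO) and 1331 to 1403 with MS8815N (141.9%). Neither overlapped DMSO. Of the 9 markers, 8 were positive and 1 negative with EPZ-6438, and all 9 were positive with MS8815N. The part of these marker shifts in the results for MS8815, or for the other compounds, was not tested. In bulk RNA, fewer cells of a type and less RNA per cell cannot be told apart.

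Promoter sequence is shown for the 3 members that were lower with MS8815 in the deposited scaling, because they are known SREBP targets and the letters of motifs tied to that factor can be looked for in them. Each run is the 250 bases before the gene's RefSeq start on GRCh38.p14, written 5′ to 3′ on the gene's strand, and capitals mark the sterol regulatory element TCACNCCAC, the E-box CACGTG and the CCAAT box on either strand (ATTGG on the reverse strand). The windows are chr22:41832855-41833104 on the plus strand for SREBF2, chr7:155297628-155297877 on the plus strand for INSIG1 and chr5:111512536-111512785 on the minus strand for STARD4.
SREBF2: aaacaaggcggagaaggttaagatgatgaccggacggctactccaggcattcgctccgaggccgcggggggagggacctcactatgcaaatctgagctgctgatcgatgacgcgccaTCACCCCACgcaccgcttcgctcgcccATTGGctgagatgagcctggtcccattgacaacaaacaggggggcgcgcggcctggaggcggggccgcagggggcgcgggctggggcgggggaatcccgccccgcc
INSIG1: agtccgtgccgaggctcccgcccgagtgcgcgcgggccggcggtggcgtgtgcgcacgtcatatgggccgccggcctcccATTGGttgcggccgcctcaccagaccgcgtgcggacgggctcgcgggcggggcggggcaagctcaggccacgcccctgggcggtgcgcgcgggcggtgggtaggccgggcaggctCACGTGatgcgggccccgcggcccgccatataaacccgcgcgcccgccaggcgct
STARD4: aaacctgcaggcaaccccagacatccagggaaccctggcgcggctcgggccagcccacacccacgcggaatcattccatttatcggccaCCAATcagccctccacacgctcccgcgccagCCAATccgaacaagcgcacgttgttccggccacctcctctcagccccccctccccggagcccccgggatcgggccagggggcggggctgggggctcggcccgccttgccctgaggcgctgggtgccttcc

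The sterol regulatory element was found in 1 of 9 members, SREBF2, at 133 bases before the start, and in 0.883% of 35116 promoter windows of the same length outside chromosome 8. The CCAAT box was found in SREBF2 at 106 bases, INSIG1 at 170 bases and STARD4 at 161 and 130 bases before the start, and in 32.008% of all windows. The E-box was found in INSIG1 at 55 bases and SCAP at 58 bases, and in 6.345% of all windows. A GC box, GGGCGG on either strand, was found in 7 of 9 members and in 42.639% of all windows. Both strands were searched, no match of one motif overlapped a match of another among the capitals above, and a match is a description of the letters, not a binding site.

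In DMSO cells the members differed widely in level. On the scale of normalised count per kilobase of the principal GENCODE 29 transcript, SREBF2 was first at 2685 ± 3.96 and INSIG1 second at 1112 ± 31.0 (SD, n = 2 each). MBTPS1 followed at 738 ± 52.2, SREBF1 at 611 ± 13.8, SCAP at 477 ± 42.4 and MBTPS2 at 342 ± 3.12. STARD4 at 285 ± 10.4, INSIG2 at 257 ± 19.3 and NPC1 at 241 ± 10.2 were the lowest. Neighbours in this order did not overlap between libraries except INSIG2 and NPC1. The line therefore carried SREBF2 transcript above SREBF1, and INSIG1 above INSIG2, in each DMSO library. With MS8815 the order changed at the low end only: NPC1, at 360 ± 40.6 per kilobase, was sixth, and STARD4, at 223 ± 20.9 per kilobase, was last. With EPZ-6438 and MS8815N, the first 6 places were those of DMSO.

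With MS8815, SREBF2, INSIG1 and STARD4 were lower and NPC1 was higher than with DMSO in the deposited scaling, and SREBF1 showed almost no difference. A gene was called when limma gave the deposited values a two-sided p under 0.05 after Benjamini-Hochberg adjustment across the whole table. By that rule 4 of 9 members were called, 1 higher and 3 lower, where 46.9% of all 18744 genes were called (24.5% higher and 22.4% lower). The libraries of the groups did not overlap for 7 of 9 members, where this held for 73.7% of all genes. The members' share is thus near that of all genes in both counts, and their median log2 fold change was -0.00, like that of all genes at 0. All genes include those of low level. With the lower 50% of genes removed, 4 of 9 members were called, where 5782 of 9372 genes were, a larger share than the members'. The direction of the 3 lower members depends on the scaling. Scaling to the 18 pan-B genes removes their median change, which was -1.06 on the log2 scale (range -2.22 to -0.38). It takes these genes as unchanged, which was not tested. All 9 members were then higher, as follows for any gene that fell less than the pan-B median. The median of all genes moved to 1.09 on the log2 scale, and 77.2% of all genes were called higher.

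**Figure D1:**
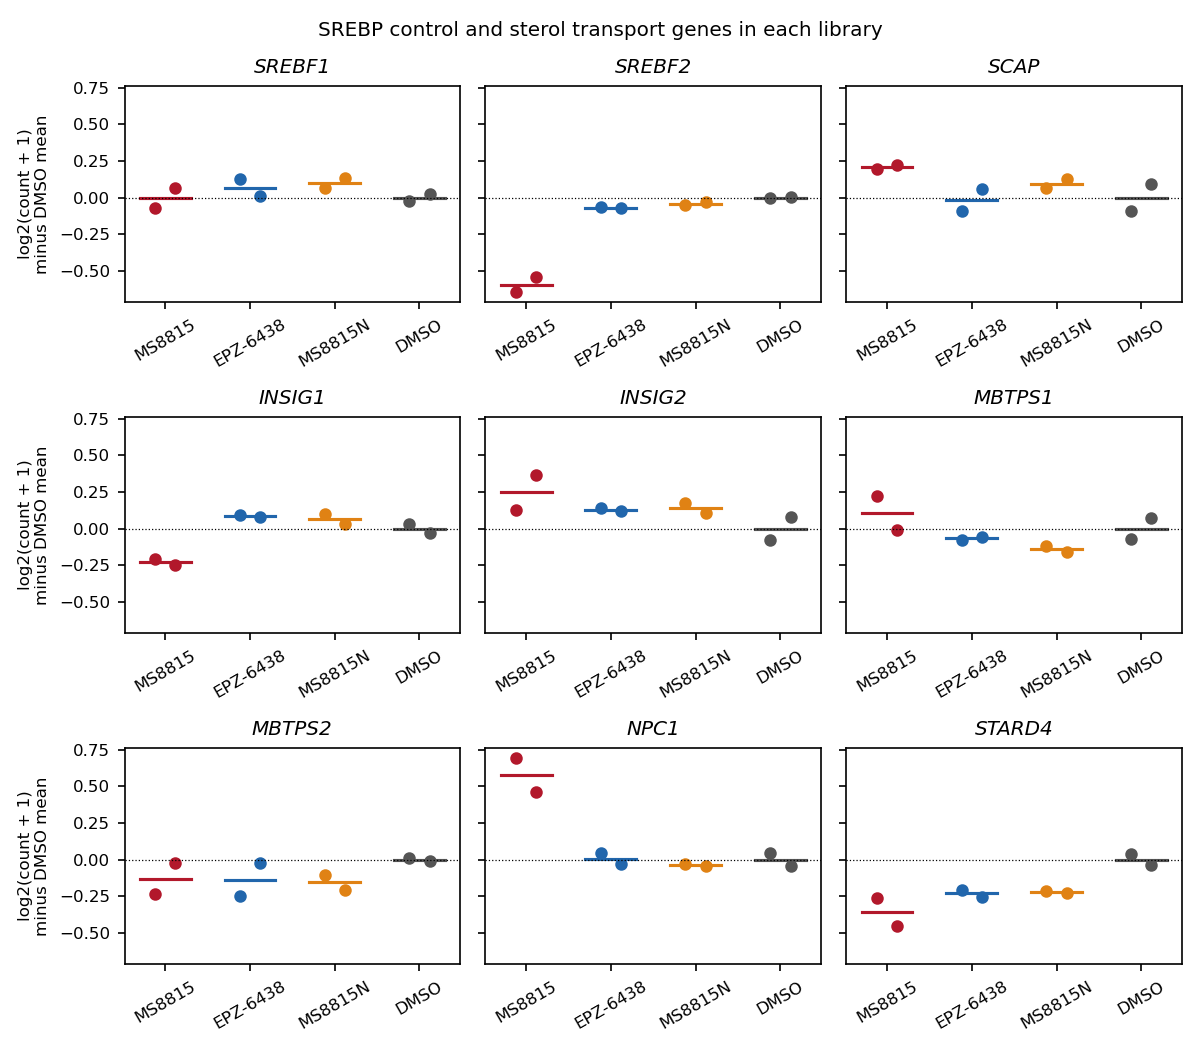
Each panel shows 1 gene, with log2(normalised count + 1) minus the mean of the DMSO libraries on the y axis, 1 point per library and a line at the mean of the 2 libraries, for MS8815, EPZ-6438, MS8815N and DMSO. In the deposited scaling SREBF2 with MS8815 sits at -0.65 and -0.54 (above DMSO when scaled to pan-B genes), NPC1 with MS8815 at 0.69 and 0.46, and STARD4 below DMSO with each compound.

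Of the transcription factors, SREBF2 was called with MS8815 and SREBF1 was not, as deposited. SREBF2 (chromosome 22, 41833079 to 41907308, GRCh38), the source of SREBP2, had normalised counts of 8984 and 9649 with MS8815, 13427 and 13389 with EPZ-6438, 13552 and 13791 with MS8815N, and 14056 and 14085 with DMSO, on the scale of the MS8815N table. The MS8815 libraries lie below the other 6, and the EPZ-6438 and MS8815N libraries lie just below DMSO without overlap. The log2 fold change for MS8815 over DMSO was -0.60 ± 0.05 (SE, n = 2 each; limma, adjusted p = 0.000199) as deposited and 0.50 when scaled to pan-B genes. Among the members' calls for MS8815 against DMSO, it was the one that held without each library in turn, with a largest adjusted p of 0.0195.

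SREBF1 (chromosome 17, 17810399 to 17837002), the source of SREBP1, had 2426 and 2674 with MS8815, 2780.0 and 2566 with EPZ-6438, 2669 and 2803 with MS8815N, and 2511 and 2592 with DMSO. The MS8815 libraries lie on either side of the DMSO libraries. For MS8815 over DMSO the log2 fold change as deposited was -0.00 ± 0.07 (SE; limma, adjusted p = 0.988), with a 95% interval of -0.18 to 0.18. It was 0.18 after quantile normalisation (adjusted p = 0.0957), and when scaled to pan-B genes it was called higher, at 1.09, the median of all genes under that scaling. The table counts the whole gene, so the isoforms SREBP1a and SREBP1c were not separated. RAI1 overlaps SREBF1 on the opposite strand, and no strand setting is given, so reads from the overlap cannot be told apart.

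The ratio of the 2 factors within a library does not change when each library is multiplied by 1 factor, as in scaling to pan-B genes, but it does change with quantile normalisation. The log2 ratio of SREBF2 to SREBF1 counts was 1.82 and 1.79 with MS8815, against 2.42 and 2.38 with DMSO, a difference of -0.59 (-0.44 after quantile normalisation). It was 2.36 and 2.47 with EPZ-6438 against 2.57 and 2.53 with DMSO, and 2.34 and 2.30 with MS8815N against 2.49 and 2.44 with DMSO, where each table has its own constant per gene. The libraries did not overlap for any of the 3 compounds, and the differences for EPZ-6438 and MS8815N were both -0.14. The 3 comparisons share the DMSO libraries. With 2 libraries a group the smallest two-sided p of an exact permutation test is 0.333, so the ratios are given as values, without a test.

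Of the escort and the retention proteins, INSIG1 was called with MS8815 (lower as deposited, higher when scaled to pan-B genes), and INSIG2 and SCAP were not, as deposited. INSIG1 (chromosome 7, 155297776 to 155310235), which retains SCAP and also serves sterol-driven degradation of HMG-CoA reductase, had 2891 and 2813 with MS8815, 3573 and 3537 with EPZ-6438, 3580.3 and 3412 with MS8815N, and 3412 and 3280.1 with DMSO. The MS8815 libraries are the lowest, and the other compounds lie at or above DMSO. The log2 fold change for MS8815 over DMSO was -0.23 ± 0.06 (SE; limma, adjusted p = 0.0188) as deposited, -0.03 (adjusted p = 0.685) when the libraries were quantile normalised and 0.86 when scaled to pan-B genes. The call was lost without DMSO replicate 1 (adjusted p = 0.166), DMSO replicate 2 (0.115) or MS8815 replicate 2 (0.0524).

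INSIG2 (chromosome 2, 118088452 to 118110997), the second retention protein, had 727 and 857 with MS8815, 734 and 721 with EPZ-6438, 749.6 and 715 with MS8815N, and 630.2 and 701 with DMSO. All 6 compound-treated libraries lie above the DMSO libraries, yet none of the 3 differences passed the test. The 3 differences share the DMSO libraries and are not independent of each other. The log2 fold change over DMSO was 0.25 ± 0.13 for MS8815 (limma, adjusted p = 0.174), 0.13 ± 0.09 for EPZ-6438 (adjusted p = 0.521) and 0.14 ± 0.09 for MS8815N (adjusted p = 0.513). INSIG2 had the fewest reads of the members, an estimated 299 in MS8815 replicate 1, where counting error alone is 5.78%.

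SCAP (chromosome 3, 47413694 to 47477126) had 2397 and 2437 with MS8815, 1963 and 2178 with EPZ-6438, 2188 and 2279 with MS8815N, and 1964 and 2228 with DMSO. The MS8815 libraries are the highest, and the DMSO libraries overlap those of the other compounds. MS8815 over DMSO gave a log2 fold change of 0.21 ± 0.08 (SE; limma, adjusted p = 0.0875), and 0.36 after quantile normalisation (adjusted p = 0.018).

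Ratios between these genes within a library likewise keep their value under 1 factor per library. INSIG1 to INSIG2 had a log2 ratio of 1.87 and 1.59 with MS8815, against 2.32 and 2.11 with DMSO. INSIG1 to SCAP had a log2 ratio of 0.26 and 0.19 with MS8815, against 0.78 and 0.54 with DMSO. SREBF2 to SCAP had a log2 ratio of 1.93 and 2.01 with MS8815, against 2.86 and 2.69 with DMSO. In these 3 ratios the MS8815 and DMSO libraries do not overlap. The differences from DMSO were -0.48 for INSIG1 to INSIG2, -0.44 for INSIG1 to SCAP and -0.80 for SREBF2 to SCAP, and -0.12, -0.39 and -0.63 after quantile normalisation. With MS8815N the libraries did not overlap DMSO for SREBF2 to SCAP either, at a difference of -0.14, while INSIG1 to INSIG2 and INSIG1 to SCAP overlapped DMSO with both EPZ-6438 and MS8815N. INSIG2 to SCAP overlapped between MS8815 and DMSO, with a difference of 0.04 as deposited and -0.27 after quantile normalisation, and did not overlap with EPZ-6438, at 0.15. Relative to SREBF2, INSIG1 was higher with MS8815, at a log2 ratio of -1.67 and -1.82 against -2.08 and -2.14 with DMSO. That ratio also did not overlap DMSO with EPZ-6438, at a difference of 0.16, and with MS8815N, at 0.10.

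**Figure D2:**
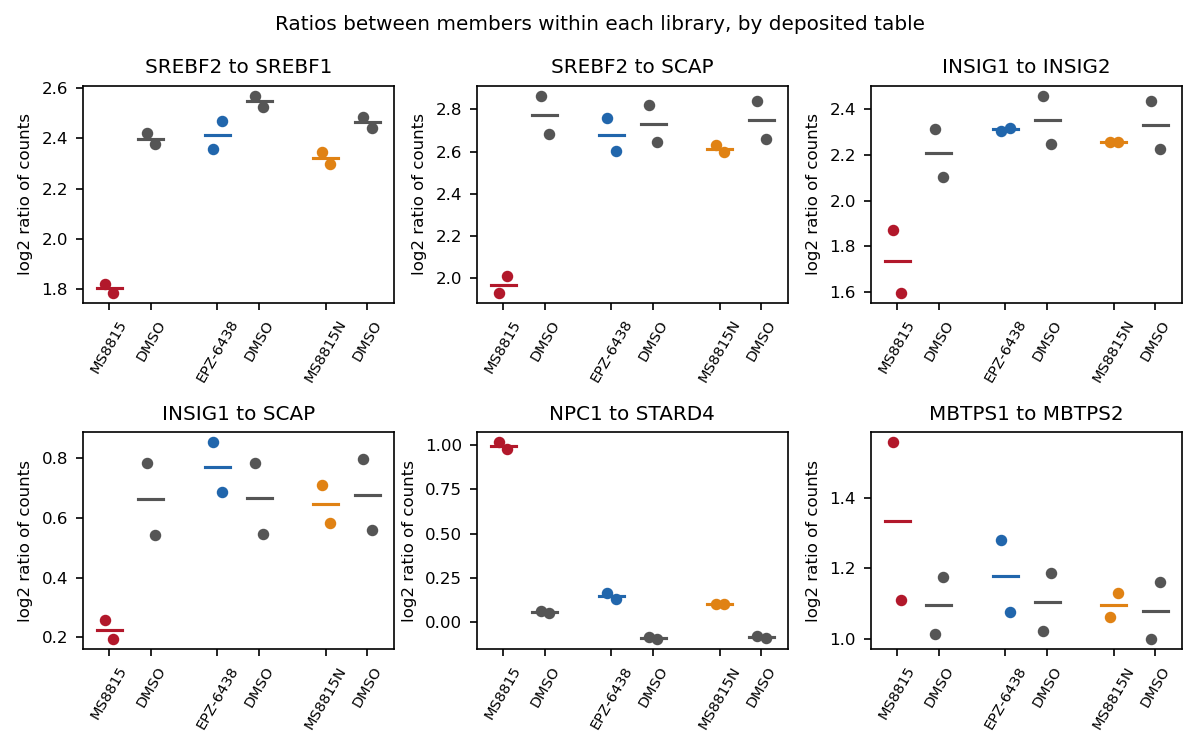
Each panel shows the log2 ratio of the normalised counts of 2 genes within each library (y axis), with each compound left of the DMSO libraries of its own table, 1 point per library and a line at the mean. SREBF2 to SREBF1 with MS8815 lies at 1.82 and 1.79 against 2.42 and 2.38 with DMSO, and NPC1 to STARD4 with MS8815 at 1.02 and 0.98 against 0.06 and 0.05 with DMSO.

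The proteases were not called against DMSO as deposited. MBTPS1 (chromosome 16, 84053761 to 84116906), the site-1 protease, had 3734 and 3174 with MS8815, 3033 and 3074 with EPZ-6438, 2942 and 2859.7 with MS8815N, and 3040.0 and 3360.3 with DMSO. One MS8815 library lies above the DMSO libraries and the other between them, and the MS8815N libraries lie below it. Over DMSO, the log2 fold change was 0.11 ± 0.10 for MS8815 (limma, adjusted p = 0.416) and -0.14 ± 0.06 for MS8815N (adjusted p = 0.311). With MS8815 it was called higher after quantile normalisation, at 0.31 (adjusted p = 0.0494), and when scaled to pan-B genes, at 1.20.

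MBTPS2 (chromosome X, 21839636 to 21885424), the site-2 protease, had 1283 and 1485 with MS8815, 1272 and 1485 with EPZ-6438, 1409 and 1307 with MS8815N, and 1522 and 1502 with DMSO. All 6 treated libraries lie below the DMSO libraries in the deposited scaling (with MS8815 above, by 0.96 on the log2 scale and called, when scaled to pan-B genes). Every compound was set against the same DMSO libraries, so these positions are not independent of each other. Log2 fold changes over DMSO were -0.13 ± 0.10 with MS8815, -0.14 ± 0.08 with EPZ-6438 and -0.16 ± 0.06 with MS8815N, with adjusted p of 0.32, 0.467 and 0.293 by limma. The gene YY2 lies inside MBTPS2 on the same strand. The log2 ratio of MBTPS1 to MBTPS2 overlapped with DMSO for each compound.

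Of the sterol carriers, NPC1 and STARD4 went opposite ways with MS8815 in the deposited scaling. NPC1 (chromosome 18, 23506184 to 23586898), the lysosomal exporter, had 2006 and 1710.2 with MS8815, 1280.2 and 1212 with EPZ-6438, 1214 and 1202 with MS8815N, and 1277 and 1203 with DMSO. The MS8815 libraries are above all 6 others, which lie within a narrow range. MS8815 over DMSO gave a log2 fold change of 0.58 ± 0.10 (SE; limma, adjusted p = 0.00581), 0.69 after quantile normalisation and 1.67 when scaled to pan-B genes. Without DMSO replicate 1 or DMSO replicate 2 the call was lost (adjusted p = 0.0822 and 0.102). RMC1, on the opposite strand, overlaps NPC1.

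STARD4 (chromosome 5, 111496033 to 111512590) had 1093 and 957 with MS8815, 1136 and 1100.1 with EPZ-6438, 1132 and 1121 with MS8815N, and 1346 and 1278 with DMSO. It was the member furthest below DMSO with EPZ-6438 and with MS8815N, and with all 3 compounds its libraries did not overlap those of DMSO. Over DMSO the log2 fold change was -0.36 ± 0.10 for MS8815 (limma, adjusted p = 0.0287; 0.73 when scaled to pan-B genes), -0.23 ± 0.07 for EPZ-6438 (adjusted p = 0.165) and -0.22 ± 0.06 for MS8815N (adjusted p = 0.166). The 3 comparisons share the same DMSO libraries, so these values are not independent of each other. The MS8815 call was lost without DMSO replicate 1 (adjusted p = 0.228), DMSO replicate 2 (0.166) or MS8815 replicate 2 (0.0679). The antisense gene STARD4-AS1 overlaps its start.

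NPC1 to STARD4 had a log2 ratio of 1.02 and 0.98 with MS8815, against 0.06 and 0.05 with DMSO, a difference of 0.94. The ratio differed from DMSO by 0.24 with EPZ-6438 and by 0.18 with MS8815N, also without overlap. As deposited, NPC1 to SREBF2 showed the widest gap of the 9 ratios computed, at -2.01 and -2.34 with MS8815 and -3.30 and -3.39 with DMSO. The difference from DMSO was 0.08 with EPZ-6438 and 0.00 with MS8815N, with overlap in both. After quantile normalisation the MS8815 difference was wider for NPC1 to STARD4, at 1.03, than for NPC1 to SREBF2, at 0.95.

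**Figure D3:**
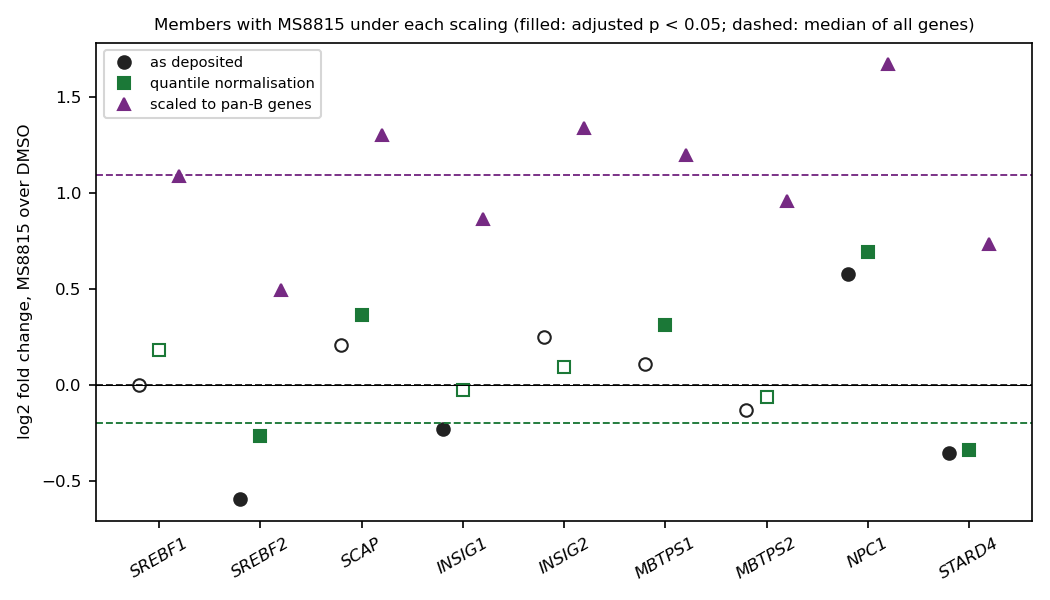
The log2 fold change of each gene for MS8815 over DMSO (y axis) is shown as deposited, after quantile normalisation and scaled to the pan-B genes, filled where the adjusted p was under 0.05, with a dashed line at the median of all genes under each scaling. SREBF2 is at -0.60 as deposited, -0.26 after quantile normalisation and 0.50 when scaled to pan-B genes, and NPC1 is above 0 under each scaling.

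The spread over the scalings can be read relative to the median of all genes, which was 0 as deposited, -0.20 with quantile normalisation and 1.09 with scaling to pan-B genes. Relative to that median, SREBF2 was at -0.60 as deposited and when scaled to pan-B genes, and at -0.06 after quantile normalisation. NPC1 was at 0.58, 0.58 and 0.89 in the same 3 settings, given as deposited, scaled to pan-B genes and after quantile normalisation. STARD4 was at -0.36, -0.36 and -0.14 in that order. INSIG1 was at -0.23 as deposited and when scaled to pan-B genes, and at 0.17 after quantile normalisation. Quantile normalisation called 5 members, 3 higher (NPC1, SCAP and MBTPS1) and 2 lower (SREBF2 and STARD4), where 19.8% of all genes were called higher and 28.0% lower.

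With EPZ-6438 and MS8815N, which the labels do not describe as PROTACs, no member passed the test. Against DMSO, limma called 0 of 9 members with EPZ-6438, where 0.0328% of 18320 genes were called. There 2 of 9 members, SREBF2 and STARD4, had an unadjusted p under 0.05, against 16.8% of all genes. With MS8815N limma called 0 of 9, where 0.533% of 18398 genes were called. There 3 of 9 members, MBTPS1, MBTPS2 and STARD4, had an unadjusted p under 0.05, against 15.7% of all genes. The other fits tried also called 0 members for both compounds. The members' log2 fold changes lay between -0.23 and 0.13 for EPZ-6438 and between -0.22 and 0.14 for MS8815N. Libraries did not overlap DMSO for 5 of 9 members with EPZ-6438 (48.1% of all genes) and for 7 of 9 with MS8815N (46.7% of all genes).

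The compounds were compared with each other in 3 pairs, at the same dose and time, by limma on all 8 libraries joined on 1 scale. MS8815 and MS8815N differ, by the labels, in that only MS8815 acts as a PROTAC. Between them 4 of 9 members were called, where 50.6% of 17467 genes were called. SREBF2 was lower with MS8815 by -0.55 (95% interval -0.64 to -0.47; adjusted p = 5.91e-06) and INSIG1 by -0.29 (-0.40 to -0.19; adjusted p = 0.00097), where scaling to pan-B genes gave 0.47 and 0.73. NPC1 was higher with MS8815 by 0.62 (0.42 to 0.81; adjusted p = 0.00048) and MBTPS1 by 0.25 (0.06 to 0.43; adjusted p = 0.0327). The MBTPS1 call was lost without MS8815 replicate 1 (adjusted p = 0.135), either EPZ-6438 replicate (0.0546 and 0.0547) or either MS8815N replicate (0.0895 and 0.142).

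MS8815 against EPZ-6438 also gave 4 of 9 called members, against 50.6% of all genes. SREBF2 differed by -0.53 (95% interval -0.61 to -0.44; limma, adjusted p = 7.63e-06), INSIG1 by -0.32 (-0.43 to -0.21; adjusted p = 0.000626) and NPC1 by 0.57 (0.37 to 0.77; adjusted p = 0.00073), MS8815 minus EPZ-6438, with 0.57 for SREBF2 and 0.78 for INSIG1 when scaled to pan-B genes. SCAP was called at 0.22 (0.05 to 0.40; adjusted p = 0.0391), a call lost without either MS8815 replicate (adjusted p = 0.0625 and 0.0873), EPZ-6438 replicate 1 (0.233) or either MS8815N replicate (0.0616 and 0.0618). STARD4, called for MS8815 against DMSO, was not called against either compound: the difference was -0.14 (-0.33 to 0.05) for MS8815 minus MS8815N and -0.13 (-0.31 to 0.06) for MS8815 minus EPZ-6438. Without MS8815 replicate 1 it was called in both, at -0.23 (adjusted p = 0.0296) and -0.22 (adjusted p = 0.0357).

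MS8815N against EPZ-6438 gave 0 of 9 called members, where 0.172% of genes were called, and 0 had an unadjusted p under 0.05, where 6.13% of genes did. The differences, MS8815N minus EPZ-6438, ran from -0.07 for MBTPS1 to 0.11 for SCAP. The narrowest interval was that of SREBF2, at 0.03 (-0.05 to 0.11), and INSIG1 was at -0.02 (-0.13 to 0.08). Intervals for the other members reached -0.26 at the low end and 0.29 at the high end, so differences within those bounds would not be seen here.

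The genes around the members were read from 4 lists of the same pathway. Over all 18744 genes, MS8815 against DMSO gave 24.5% higher and 22.4% lower as deposited, 19.8% and 28.0% after quantile normalisation, and 77.2% and 0.475% when scaled to pan-B genes. Without DMSO replicate 1 or 2 these shares were 10.5% or 10.4% higher and 9.02% or 8.70% lower. Each list's counts are to be read against those shares. In the list of SREBP transport, processing and turnover, MS8815 gave 7 higher and 9 lower of 25 genes, against 24.5% and 22.4% of all genes (median log2 fold change -0.06) and, after quantile normalisation, 10 higher and 4 lower. When scaled to pan-B genes 24 were higher and 0 lower. SYVN1, a ubiquitin ligase of the endoplasmic reticulum, was lower by -0.71 ± 0.04 (SE; limma, adjusted p = 8.48e-05; 0.38 when scaled to pan-B genes). SEC24C, a cargo subunit of the COPII coat, was lower by -0.53 ± 0.06 (adjusted p = 0.000673; 0.56 when scaled to pan-B genes). LPIN1, a phosphatidate phosphatase known to restrain SREBP activity in mouse cells, was higher by 0.86 ± 0.06 (adjusted p = 0.000206). ERLIN1, a membrane protein reported to bind the SREBP-SCAP-INSIG complex, was higher by 0.72 ± 0.09 (adjusted p = 0.00178; 0.0548 without DMSO replicate 2). Without DMSO replicate 1 the counts were 3 higher and 2 lower, and without DMSO replicate 2 they were 2 and 2.

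In the list of sterol uptake, egress and transfer, MS8815 gave 15 higher and 4 lower of 27 genes, against 24.5% and 22.4% of all genes, with a median log2 fold change of 0.44 against 0 for all genes. NPC2, which hands lysosomal cholesterol to NPC1, was higher by 1.06 ± 0.07 (SE; limma, adjusted p = 0.000147), and SOAT1, which esterifies cholesterol for storage, by 0.77 ± 0.07 (adjusted p = 0.000368). VLDLR, a lipoprotein receptor, was higher by 3.94 ± 0.32 (adjusted p = 0.000182) and OSBPL1A, an oxysterol-binding protein relative, by 3.98 ± 0.29 (adjusted p = 0.000192). With DMSO, VLDLR and OSBPL1A had low mean normalised counts, 10.9 and 10.3, on the scale of the MS8815 table. NPC2 and SOAT1 had 770 and 984 there. The log2 fold changes of VLDLR and OSBPL1A are near the median of the epithelial and fibroblast markers, 3.96. The part of other cells' RNA in them was not tested. Quantile normalisation gave 13 higher and 2 lower, and scaling to pan-B genes 26 higher and 0 lower. Without DMSO replicate 1 or 2 the list gave 8 or 7 genes higher and 2 lower.

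Of 20 sterol synthesis enzymes, which SREBP2 is known to drive, MS8815 gave 0 higher and 18 lower in the deposited scaling, against 24.5% and 22.4% of all genes (11 lower without DMSO replicate 1 or 2), with a median log2 fold change of -0.67. When scaled to pan-B genes 13 were higher and 3 lower, below the median of all genes at 1.09. HMGCS1 was lower by -1.52 ± 0.07, IDI1 by -1.30 ± 0.06 and SQLE by -1.30 ± 0.06 (SE; limma, adjusted p = 3.28e-05, 3e-05 and 3.14e-05), beside -0.60 for SREBF2. FDPS, which makes farnesyl diphosphate, was lower by -0.80 ± 0.05 (adjusted p = 0.000127; 0.29 when scaled to pan-B genes). The list of fatty acid enzymes under SREBP1 holds 15 genes, among them TMEM97 and MID1IP1, which are not enzymes. Of the 15 genes, 6 were higher (MID1IP1 included) and 5 lower (TMEM97 included) with MS8815, with a median of -0.03. The shares of all genes were again 24.5% and 22.4%. After quantile normalisation 7 were higher and 2 lower, and when scaled to pan-B genes all 15 were higher. FADS1 and FADS2, the fatty acid desaturases, were higher by 3.32 ± 0.13 and 3.59 ± 0.13 and MID1IP1 by 3.95 ± 0.21. The epithelial and fibroblast markers ran from -1.81 to 4.92, with a median of 3.96. The part of other cells' RNA in these 3 genes was not tested. ACLY, which makes cytosolic acetyl-CoA, was lower by -0.67 ± 0.04 (0.42 when scaled to pan-B genes).

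EPZ-6438 gave 0 called genes in the 4 lists by limma. Unadjusted p was under 0.05 for 12 of 25 genes of transport, 7 of 26 of uptake, 5 of 20 of sterol synthesis and 4 of 15 of the fatty acid list. Each list's share was above the 16.8% of all genes, which include genes of low level. MS8815N gave 1 called gene, a sterol synthesis enzyme. Unadjusted p was under 0.05 for 8 of 25, 7 of 27, 8 of 20 and 5 of 15 genes in the same order. Each of these shares was above the 15.7% of all genes. Shares over genes of like level were not computed for either compound. With the lower 50% of genes removed, limma called 292 of 9160 genes with EPZ-6438, against 6 of 18320 without removal. With MS8815N it called 382 of 9199, against 98 of 18398. Of the 25 transport genes, 22 had a negative and 3 a positive log2 fold change with EPZ-6438, and 21 and 4 with MS8815N. The median of these genes was -0.09 and -0.08, against 0.006 and 0.004 for all genes. Both compounds were compared with the same DMSO libraries, so the second count does not repeat the first independently. The lists were not tested as sets. The called gene with MS8815N was HMGCS1, the HMG-CoA synthase, lower at -0.31 ± 0.04 (SE; limma, adjusted p = 0.0236). With each library left out in turn, its log2 fold change lay between -0.35 and -0.28. The call did not hold in these fits, but they leave 1 library in a group and called almost no gene. The loss is therefore not particular to HMGCS1. SREBF2 differed from DMSO by -0.04 ± 0.02 with MS8815N and INSIG1 by 0.06 ± 0.05, neither of which passed the test.

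**Figure D4:**
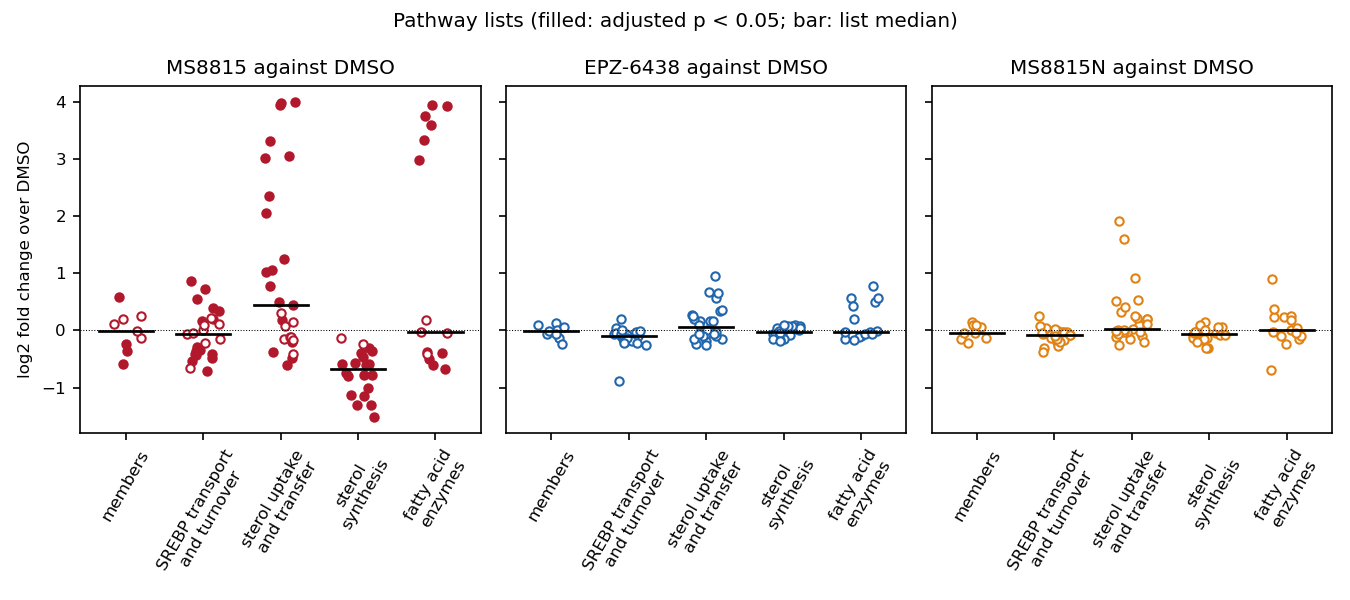
Each point is a gene, placed by its log2 fold change over DMSO (y axis) in the member list and 4 pathway lists (x axis), with 1 panel per compound, filled where the adjusted p was under 0.05, with a bar at the list median. With MS8815 the median of the sterol synthesis enzymes is -0.67 in the deposited scaling (13 of 20 were higher when scaled to pan-B genes), and with EPZ-6438 and MS8815N the medians of the 5 lists lie between -0.09 and 0.05.

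The members did not share 1 profile over the 8 libraries. Profiles were log2 values centred on the DMSO mean, and likeness was the root mean square difference over the 8 libraries, among 11164 other genes with a mean normalised count of at least 100. The members nearest to each other were SCAP and INSIG2, at 0.11, and NPC1 was the most isolated, at 0.23 from SCAP. SREBF2 was nearest to C21orf59, PSIP1 and CDV3, at 0.02 each, and 1078 genes lay within 0.1 of it. STARD4 was nearest to G3BP2, POLR2B and DIS3, at 0.03, 0.03 and 0.04, with 259 genes within 0.1. INSIG1 was nearest to PFKL, ZMYND19 and CCDC124, at 0.03 each, with 864 genes within 0.1. NPC1 had the fewest near genes, 93 within 0.1, led by KCTD20 at 0.05, BMF at 0.05 and B3GALNT2 at 0.06. SREBF1 was nearest to COMMD5, C1orf109 and ZNF497, at 0.03 to 0.04. The libraries of a group share their depth and, with MS8815, their cell marker shift, so likeness over 8 libraries is likeness over 4 groups.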

How the data were processed

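The deposited values are 3 tables of log2-type values per gene, one per compound, which the authors made with the variance-stabilising transform of DESeq2, per the table names, each over 2 libraries of the compound and the same 2 DMSO libraries. STAR 2.4.2, Salmon and the build GRCh38 appear, without their role, in the submitters' processing notes, and the labels' protocols name 2 library kits without saying which served which library. A strand setting is not given in the sources used here.

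The transform was inverted in closed form to normalised read counts. After inversion the DMSO libraries differed between tables by constants per gene and per library (largest deviation 4e-11 on log2 over 17219 genes), so the tables were joined on the scale of the MS8815N table. Depth was estimated from low values that are whole multiples of 1 read (43.1% to 63.0% of them, within 0.02 of a multiple). Estimated reads per member and library ran from 299 to 14702, and counting error from 5.78% to 0.82%.

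Each compound was tested against DMSO within its table in R 4.3.3 with limma 3.58.1, its trend option on, using the deposited values. Log2 fold changes and SEs came from limma on log2(normalised count + 1), a scale that understates changes of low genes. Compounds were compared on the joined libraries. P-values were adjusted by Benjamini-Hochberg over all genes, with no filter. The fits were tested on simulated data. Alternatives were another scale, no trend, removal of the lower 50% of genes, quantile and pan-B scaling, a joined fit, a replicate block, pseudocounts of 0.1 and 10, and leaving out each library. The settings for the pathway lists were added after the data were seen.

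All 9 members are named. From each pathway list up to 4 genes with the smallest p were taken, and 3 nearest profiles per member, of which those of 5 members are given. A gene of the pathway lists is not reported here. The members and lists were chosen with earlier results of these data known. Gene positions are those of GENCODE 29, promoter sequences those of RefSeq on GRCh38.p14, in which all 9 members matched.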

Additional observations from a re-analysis of the deposited data

How the results depend on the processing

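MS8815 against DMSO called 4 of 9 members, where 46.9% of all genes were called. With 1 library left out, the log2 fold change of INSIG1 lay between -0.25 and -0.21. NPC1 was at 0.62 without DMSO replicate 1 and 0.54 without DMSO replicate 2. STARD4 was at -0.32 and -0.39 without those libraries, and at -0.26 without MS8815 replicate 2. Calls lost in these fits are given with each gene above. Scaled to pan-B genes, 9 members were called, all higher, against DMSO, against MS8815N and against EPZ-6438. Against DMSO, 77.2% of all genes were called higher under that scaling. Of 17467 genes, it called 13689 against MS8815N and 13794 against EPZ-6438, in either direction. The log2 difference for MS8815 then turned positive for SREBF1 (1.09 against DMSO, 0.93 against MS8815N, 1.03 against EPZ-6438), SREBF2 (0.50, 0.47, 0.57), INSIG1 (0.86, 0.73, 0.78) and STARD4 (0.73, 0.89, 0.97), and against DMSO also for MBTPS2 (0.96), SYVN1 (0.38), SEC24C (0.56), FDPS (0.29) and ACLY (0.42). For the members, 756 single values were recomputed, of which 706 kept their side of the threshold and had no called change of sign. With the sign kept, 21 lost the call and 16 gained one. A further 13 changed sign with a call before or after, and some of these also gained a call. Changes of sign without a call are among the 706. Without a trend, MBTPS1 (MS8815 against MS8815N, adjusted p = 0.106) and SCAP (MS8815 against EPZ-6438, adjusted p = 0.105) were not called. Removal of the lower 50% of genes, the joined fit and the pseudocounts changed no member's call. With MS8815N or EPZ-6438 against DMSO, and between those compounds, 0 members were called under each setting. Over all genes, MS8815 against DMSO gave 8782 calls, and 3583 to 14550 over the settings. EPZ-6438 against DMSO gave 6, and 0 to 292, MS8815N against DMSO gave 98, and 0 to 382, and MS8815N against EPZ-6438 gave 30, and 4 to 64. MS8815 gave 8832 calls against MS8815N, 5635 to 13689 over the settings, and 8831 against EPZ-6438, 5613 to 13794 over the settings. A table with 1 library of a group left assumes that the lone library varies like the others.

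The replicate block gave 4 called members for MS8815 against DMSO, MS8815N and EPZ-6438, and 0 in the other comparisons, and changed no call of a member. Correlations of the deviations of same-numbered libraries lay between -0.05 and 0.04 over 12411 genes. They show no pairing by number across genes but cannot exclude a shared culture or batch. With the block, calls over all genes against DMSO went from 98 to 353 for MS8815N, 6 to 10 for EPZ-6438 and 8782 to 8694 for MS8815. The MS8815 libraries have at most 14.64 M reads, which limits the members of low level, and with 2 libraries per group no outlying library can be tested for.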
